A study of Homo sapiens with 6 samples.

Results

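The miR-221 and miR-222 pair was examined in HuCCT1 cells, an established human cholangiocarcinoma (CCA) cell line, after incubation with or without TGF-β. The pair comprises 4 mature miRNAs, namely hsa-miR-221-3p, hsa-miR-222-3p, hsa-miR-221-5p and hsa-miR-222-5p (written without the species prefix from here on), which were found by name among the 2555 human miRNA probes of the arrays. Control cells received 0 ng/ml TGF-β and treated cells received 10 ng/ml TGF-β, both for 72 h, and each group was measured on 3 one-colour microRNA arrays. The labels name no genotype or other agent for either group, and they do not say whether the 3 samples of a group came from separate cultures, so p-values measure only the spread between these samples, which may be technical. The cell line is the only model used here, and each array carried the total RNA of a whole sample, so a change in the RNA per cell and a change in the share of cells that hold it cannot be told apart.

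The precursors of miR-221 and miR-222 are neighbours on the X chromosome and are known to be cut from 1 noncoding transcript. Each precursor gives a 5p and a 3p arm, and the 3p arm is generally the one that is loaded into the silencing complex. MiR-221-3p and miR-222-3p are known as oncogenic miRNAs in liver, biliary and other carcinomas. They repress the cell cycle inhibitor CDKN1B (p27), the receptor tyrosine kinase KIT and, in breast cancer cells, TRPS1, a repressor of epithelial-mesenchymal transition (EMT). TGF-β is a cytokine that induces EMT in CCA cells. The question was therefore whether the arms of this pair differed between control and TGF-β-treated cells.

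In GRCh38.p14, the MIR221 hairpin lies on the minus strand of chromosome X at chrX:45746157-45746266, and the MIR222 hairpin lies on the same strand at chrX:45747015-45747124. They are separated by 748 bases, and both lie inside the annotated span of the long noncoding RNA gene MIR222HG (chrX:45745214-45770267). The nearest other annotated miRNA hairpin, MIR4769, lies 1840305 bases away. Mature sequences of 3 of the 4 arms were found in the RefSeq table of that build. They are shown because the seed, bases 2 to 8 in capitals, decides which mRNAs a miRNA can pair with.
miR-221-3p: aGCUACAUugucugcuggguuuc
miR-222-3p: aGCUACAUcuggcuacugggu
miR-222-5p: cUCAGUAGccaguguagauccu
MiR-221-3p (23 bases) and miR-222-3p (21 bases) began with the same 8 bases. Counted from the 5′ end with no gap allowed, they had the same base at 11 of 21 positions. That count understates their likeness, since both also hold CUGGGU near the 3′ end, at positions that differ. No other mature human miRNA of the table had their seed. The seed of miR-222-5p was shared with no other mature miRNA.

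The 3p arms were far above background on every array, whereas the 5p arms were not. A probe was taken as detected when its brightness exceeded the mean of the 229 blank spots of the array by more than 2 SD of those spots. MiR-221-3p lay 188 to 395 SD above the blank spots on the control arrays and 249 to 386 SD above them on the TGF-β arrays. MiR-222-3p lay 111 to 217 SD above them on the control arrays and 143 to 265 SD above them on the TGF-β arrays. Both 3p arms were thus detected on 6 of 6 arrays.
MiR-221-5p, the other arm of the miR-221 precursor, was detected on 0 of 6 arrays. In control cells, arrays 1, 2 and 3 placed it at 1.89, 0.065 and -2.72 SD from the mean of the blank spots, and after TGF-β treatment the corresponding places were -1.07, 0.50 and -0.54 SD. The authors' deposited table lists miR-221-5p for control array 1 alone, at a normalized value of 4.7. MiR-222-5p was detected on control array 1, at 4.71 SD, and on TGF-β array 2, at 3.17 SD. On control arrays 2 and 3 it lay at 0.43 and 1.95 SD, and on TGF-β arrays 1 and 3 at -0.10 and 1.85 SD. The authors' values list miR-222-5p on 2 control arrays, at 11.5 and 3.7, and on 2 TGF-β arrays, at 7.4 and 4.9. Neither 5p arm was detected on all 3 arrays of a group, so no fold change or test is given for them.

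**Figure D1:**
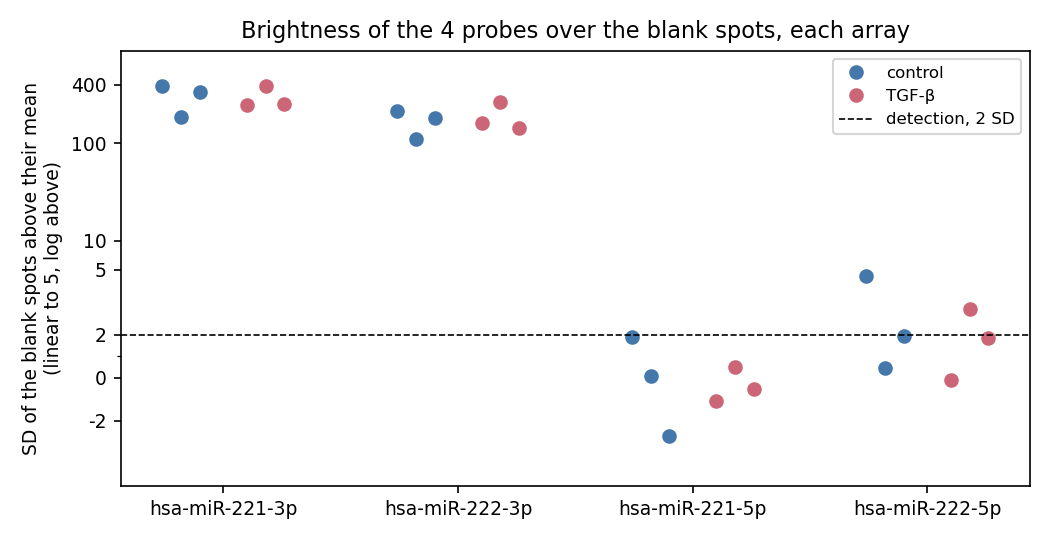
Brightness of the 4 probes on each array, in SD of the blank spots from the blank mean (vertical axis, linear to 5 and logarithmic above), with control arrays in blue, TGF-β arrays in red and the detection limit of 2 SD as a dashed line. The 3p arms lie above 100 SD on every array, miR-221-5p lies below the limit on every array, and miR-222-5p crosses it on 1 array of each group.

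For comparison between arrays, brightness was taken above the mean of the blank spots, and 1 factor per array brought the median of the 292 probes detected on every array to 25. MiR-222-3p was higher on every TGF-β array than on any control array. Control arrays 1, 2 and 3 gave normalized signals of 198, 239 and 189, and TGF-β arrays 1, 2 and 3 gave 297, 277 and 276. The groups did not overlap, and control array 2 came closest to the TGF-β arrays. The mean was 209 ± 26.8 (SD, n = 3) in control cells and 283 ± 11.7 (SD, n = 3) in TGF-β-treated cells. The log2 change was 0.45 (standard error 0.18), which is 1.36-fold with a 95% confidence interval from 1.02 to 1.82. It had an unadjusted p of 0.040 in limma and did not pass adjustment over the 323 expressed miRNAs, those that all 3 arrays of 1 or both groups detected (limma adjusted p = 0.69). The 2-sided exact permutation test gave p = 0.10, the smallest that 3 arrays against 3 allow.

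MiR-221-3p had a smaller difference in the same direction, and its groups overlapped. Control arrays 1, 2 and 3 gave normalized signals of 361, 405 and 356, and TGF-β arrays 1, 2 and 3 gave 458, 403 and 490. TGF-β array 2 lay just below control array 2, and the other TGF-β arrays lay above all controls. The mean was 374 ± 27.2 (SD, n = 3) in control cells and 451 ± 43.8 (SD, n = 3) in TGF-β-treated cells. Its log2 change of 0.27 had a standard error of 0.18 and a limma adjusted p = 0.93, and it amounts to 1.20-fold with a 95% confidence interval from 0.902 to 1.60, so that neither an absent change nor one of 1.5-fold lay outside the interval. The exact permutation test gave p = 0.20. The log2 change was 0.16 without TGF-β array 3, the array with the highest signal.

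**Figure D2:**
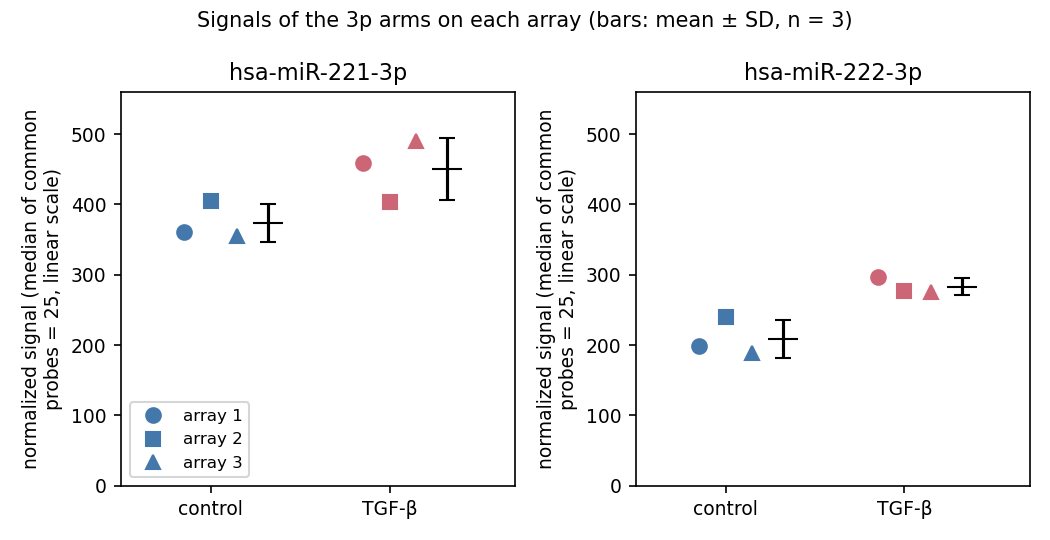
Normalized signal (vertical axis, linear scale) of miR-221-3p and miR-222-3p on the 3 control and 3 TGF-β arrays, with 1 point per array and the mean ± SD (n = 3) beside the points. For miR-222-3p the TGF-β arrays, at 276 to 297, lie above the control arrays, at 189 to 239; for miR-221-3p, TGF-β array 2 (403) lies below control array 2 (405).

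These values were read against all expressed miRNAs. With limma, 0 of the 323 (0%) were past an adjusted p of 0.05, while 21 had an unadjusted p under 0.05. MiR-222-3p was 1 of the 15 miRNAs with an unadjusted p under 0.05 that were higher with TGF-β, 4.64% of those tested. It was also 1 of 23 miRNAs (7.12%) whose TGF-β arrays all lay above the control arrays, and 9 (2.79%) had the opposite order. By log2 change, 28 of the 323 miRNAs lay above miR-222-3p and 53 lay above miR-221-3p, while the median of all 323 was 0.01.
Replicate arrays were closer to each other for the 3p arms than for most miRNAs. The pooled SD of the log2 signals within groups was 0.12 for miR-221-3p and 0.13 for miR-222-3p, against a median of 0.29 over the expressed miRNAs. Of the 323, 21 had a smaller SD than miR-221-3p and 28 had a smaller SD than miR-222-3p. Among the 60 expressed miRNAs with a mean signal of at least 100, a limit set after the values were seen, the median log2 change was 0.05. Of these 60, 39 (65%) had a log2 change above 0, against 51.1% of all expressed miRNAs. In 8 of the 60 (13.3%), miR-222-3p included, all TGF-β arrays lay above the control arrays. The SD within groups was not summarized over these brighter miRNAs alone. Some of them had a smaller SD than either 3p arm, such as miR-200c-3p (0.096) and miR-23a-3p (0.098), and others had a larger one. Close replicates were therefore not particular to the pair.

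**Figure D3:**
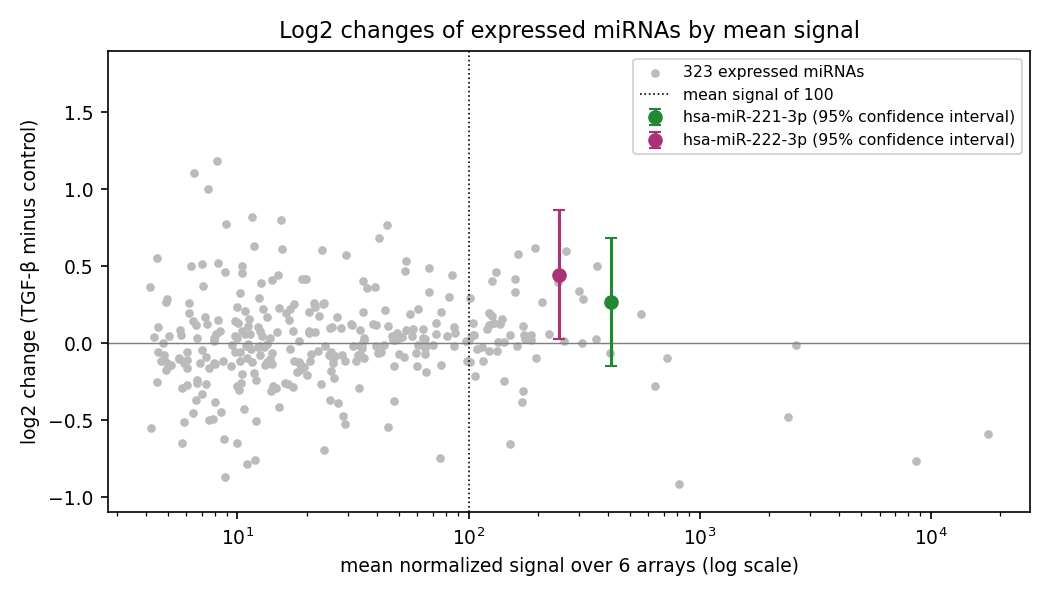
Log2 change of each of the 323 expressed miRNAs (vertical axis, TGF-β minus control) against its mean normalized signal over 6 arrays (horizontal axis, log scale), with the 3p arms in colour and their 95% confidence intervals as bars. MiR-222-3p (0.45) and miR-221-3p (0.27) lie above the median of 0.01, and the interval of miR-221-3p includes 0.

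The size of both differences depended on the level to which the arrays were scaled. In the authors' normalized values, in which the median is set to 25 over a different number of miRNAs on each array, miR-222-3p had values of 523, 347 and 342 in control cells, compared with 397, 613 and 377 in TGF-β-treated cells. These groups overlapped, with a mean of 404 ± 103 (SD, n = 3) in controls and 462 ± 131 (SD, n = 3) with TGF-β (exact permutation test, p = 0.50). MiR-221-3p had values of 951, 588 and 645 in control cells, compared with 613, 893 and 671 in TGF-β-treated cells. Its means were 728 ± 195 (SD, n = 3) and 725 ± 147 (SD, n = 3). Control array 1 was the highest array for miR-221-3p in these values. The log2 changes were 0.19 for miR-222-3p and 0.0086 for miR-221-3p. In the same values the median log2 change of all expressed miRNAs was -0.27.
A scaling by 1 factor per array moves all miRNAs of an array alike, so the log2 change minus the median change over the expressed miRNAs stayed by construction at 0.43 for miR-222-3p and 0.25 for miR-221-3p under each such factor, and it says nothing about stability. After quantile normalization, which is not a factor, the change minus the median was 0.25 for miR-222-3p and 0.12 for miR-221-3p. The groups of miR-222-3p also overlapped when each array was scaled on its own detected probes, after quantile normalization and with no scaling.
The background correction changed the result as well. With normexp correction against the mean of the blank spots, a setting added after the values were seen, the log2 changes were 0.43 for miR-221-3p, whose groups then did not overlap, and 0.56 for miR-222-3p, whose groups then did. With normexp on the scanner column named as local background, both directions turned, to -0.47 for miR-221-3p and -0.15 for miR-222-3p (limma adjusted p = 0.999 for both). That column was brighter than the spot itself for both 3p arms on 5 of 6 arrays.
By the names of the scanner files, TGF-β array 1 shared a chip with the controls, and a separate chip held the other TGF-β arrays. Chip and treatment are therefore largely confounded. With the chip as a block, the log2 change was 0.51 for miR-222-3p and 0.30 for miR-221-3p. That change rests on TGF-β array 1 against the 3 controls, because the other chip held no control. Within the first chip alone, the same comparison, scaled on the arrays of that chip, gave 0.44 for miR-222-3p and 0.22 for miR-221-3p. Both fits rest on the same 1 treated array, so they are not separate evidence and no p is given for them.

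**Figure D4:**
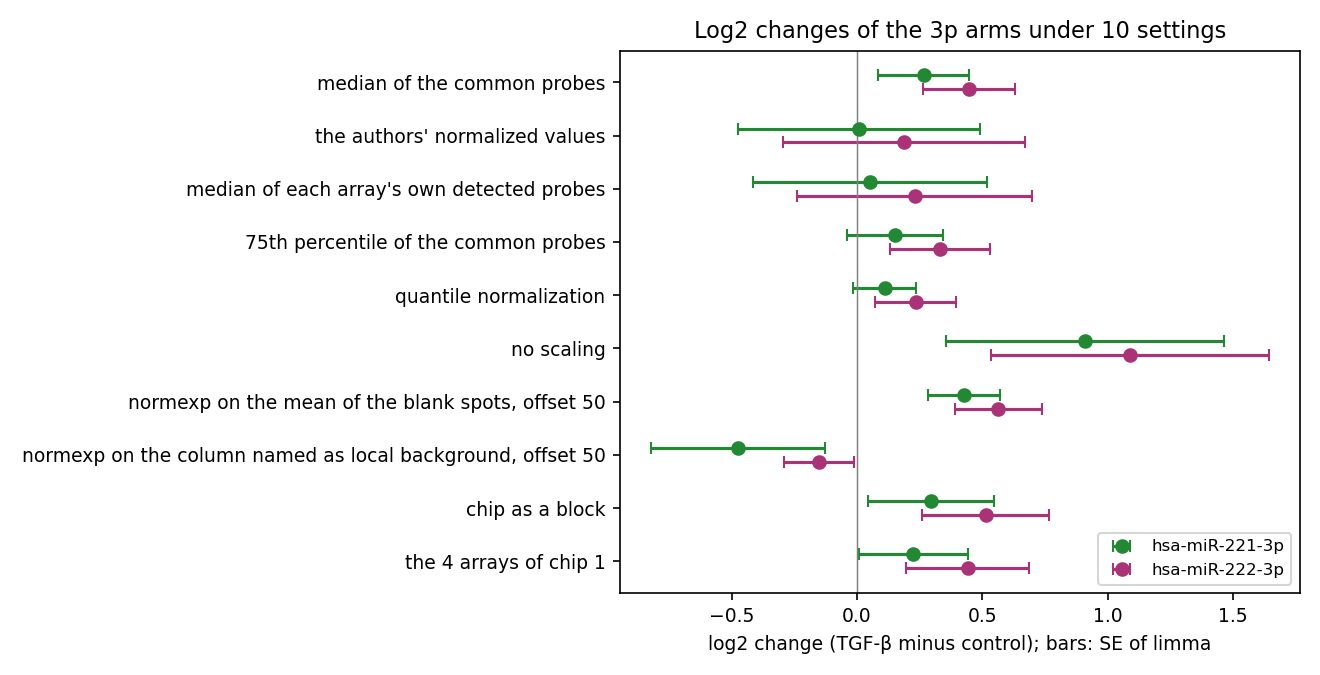
Log2 change of the 3p arms (horizontal axis, TGF-β minus control) under 10 settings of values, scaling, background and chip, with the standard error from limma as bars. MiR-222-3p lies to the right of miR-221-3p in each of these settings, from -0.15 with normexp on the column named as local background, where both arms lie below 0, to 1.09 with no scaling. With no scaling, the median log2 change of all expressed miRNAs was itself 0.66.

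As both 3p arms come from 1 transcript, their difference was also compared within arrays, where the scale factor of an array cancels. The brightness of 2 probes is not a ratio of molecules, so only the change of the difference is of interest. Whether the probe of 1 arm also binds the other, similar arm was not tested. The log2 signal of miR-221-3p minus that of miR-222-3p was 0.86, 0.76 and 0.91 in control cells (arrays 1, 2 and 3), compared with 0.63, 0.54 and 0.83 in TGF-β-treated cells. TGF-β arrays 1 and 2 lay below every control array, and TGF-β array 3 lay within the range of the controls. The mean was 0.85 ± 0.079 (SD, n = 3) in control cells and 0.67 ± 0.15 (SD, n = 3) with TGF-β. The difference between the groups, -0.18, was not separated from the spread of replicate arrays (p = 0.20 by a 2-sided exact permutation test). Between arrays of the same number, the within-array difference was lower with TGF-β in 3 of 3 pairs (TGF-β minus control of -0.23, -0.22 and -0.084), for which an exact paired permutation test gave p = 0.25, the smallest that 3 pairs allow.

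**Figure D5:**
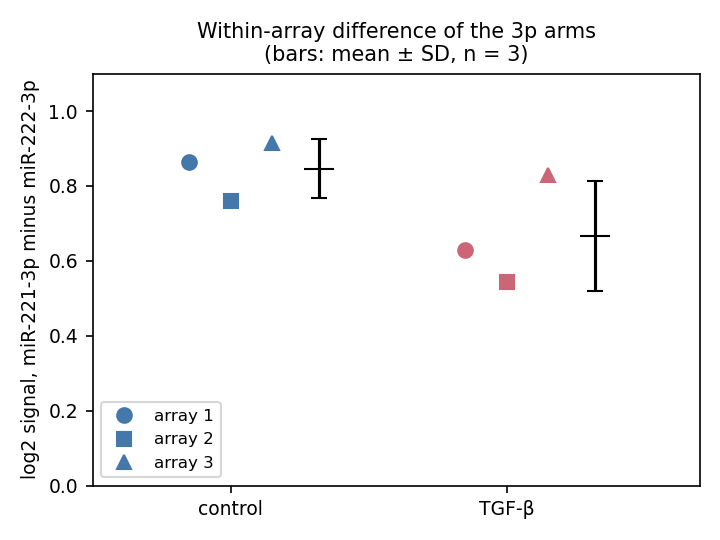
Log2 signal of miR-221-3p minus that of miR-222-3p on each array (vertical axis), with 1 point per array and the mean ± SD (n = 3) beside the points. TGF-β arrays 1 and 2 (0.63 and 0.54) lie below the controls (0.76 to 0.91), and TGF-β array 3 (0.83) lies among them.

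The signals of the 2 arms correlated over the 6 arrays (Pearson r = 0.87), and their deviations from the group means correlated less (r = 0.59). Both values are descriptions, since the arms share the scale factors of their arrays. Of the 291 other miRNAs detected on all arrays, 6 followed miR-221-3p more closely than miR-222-3p did. The miRNAs most like miR-221-3p were miR-22-3p (r = 0.96), miR-200b-3p (r = 0.93) and miR-125a-5p (r = 0.93), with log2 changes of 0.36, 0.30 and 0.36. Those most like miR-222-3p were miR-23a-3p (r = 0.98), miR-181b-5p (r = 0.98) and miR-200c-3p (r = 0.97), with log2 changes of 0.50, 0.77 and 0.40. The TGF-β and control arrays did not overlap for miR-23a-3p, miR-181b-5p, miR-200c-3p and miR-200b-3p (7.12% of all expressed miRNAs were higher without overlap). Nothing is read from this count, since these miRNAs were chosen by their likeness to the pair on the same arrays. None of the 6 passed adjustment (limma adjusted p between 0.43 and 0.89).

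Other miRNAs linked to TGF-β signalling or EMT were taken from a list that does not contain the pair. Of its 25 members on the array, 21 were expressed, and limma called 0 at an adjusted p of 0.05. Of the 21, 3 had an unadjusted p under 0.05, all of them higher with TGF-β (4.64% of all expressed miRNAs were), and 14 had a log2 change above 0, as did 165 of the 323 (51.1%). The median log2 change was 0.12, against 0.01 for all expressed miRNAs and 0.45 and 0.27 for the 3p arms of the pair. Single changes in the list ran from -0.65 (miR-141-3p, whose groups overlapped) to 0.77 (miR-181b-5p). The list holds epithelial miRNAs beside miRNAs that TGF-β is known to induce, so its median has no set direction. It was chosen with earlier results of these data known. The median of the list was -0.14 in the authors' values, where that of all expressed miRNAs was -0.27, and -0.02 without TGF-β array 3. The groups did not overlap for 5 of the 21, each higher with TGF-β, against 23 of the 323 (7.12%) higher and 9 (2.79%) lower. The 4 with the largest changes were miR-181b-5p (0.77) and miR-181a-5p (0.77), miRNAs of 1 seed family that TGF-β is known to induce, miR-23a-3p (0.50), a miRNA of the miR-23a, miR-27a and miR-24 cluster, and miR-200c-3p (0.40), an epithelial miRNA that represses ZEB1.

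The epithelial identity of the cells was checked with markers. Of 5 miRNAs of the miR-200 family, which mark epithelial cells, 4 were detected on all 6 arrays, and miR-429 was detected on 5. Their summed normalized signal was 329 to 367 on the control arrays and 407 to 454 on the TGF-β arrays, so it was higher with TGF-β, as was miR-222-3p, and its part in that result was not tested. The sum was carried by miR-200c-3p and miR-200b-3p, with log2 changes of 0.40 and 0.30, while those of miR-429, miR-200a-3p and miR-141-3p were 0.05, -0.08 and -0.65. With each array scaled on its own detected probes, the sum was 462 to 770 in control cells and 498 to 839 with TGF-β, and the groups overlapped. Markers of hepatocytes (miR-122-5p), endothelium (miR-126-3p), mesenchymal cells (3 miRNAs) and muscle (3 miRNAs) were detected on no array. A further planned mesenchymal marker, miR-199a-3p, had no probe of exactly that name and was not looked at. Of 6 blood markers, 5 were detected on no array, and miR-223-3p was detected on 1 TGF-β array.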

How the data were processed

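Total RNA of 3 control and 3 TGF-β samples was labelled with Cy5 and hybridized to 3D-Gene Human miRNA Oligo chips. The authors deposited, for each array, the scanner output, in which the intensity of every spot is a median over its pixels on a linear scale without normalization, and a table of normalized intensity values with a median of 25 per array. A second column of the scanner output is named as local background. It correlated with the spot intensity at r = 0.83 to 0.997 and exceeded the intensity of both 3p arms on 5 of 6 arrays, so the mean of the blank spots was used as background. The version of the extraction software is not given in the sources used here. Probe sequences were not used here.

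After scaling, undetected probes were given the lowest signal among the detected probes of their array, and log2 was taken. From 0 to 2 human probes per array, none of them of the pair, were flagged as failed and treated as missing. Between 327 and 464 probes were detected per array. Groups were compared with limma 3.58.1 (lmFit and eBayes, no block) in R 4.3.3 over the 323 expressed miRNAs, with Benjamini-Hochberg adjustment. The number of arrays limits the precision.

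The miRNAs named are the 4 members; for each member detected on all 6 arrays, the 3 with the highest Pearson r; those with a member's seed; and, from the TGF-β and EMT list, up to 4 with the largest changes whose groups do not overlap. The members and lists were chosen with earlier results of these data known. Both groups use the same replicate numbers. Deviations of same-numbered arrays from their group means correlated by 0.12, 0.24 and 0.33 (over 323 miRNAs, and miRNAs are no independent replicates). Arrays of unlike numbers were not compared, so these values do not show that the numbers pair the arrays. The main limma fit and the permutation tests of each 3p arm were unpaired, and pairing by number was tried only as an alternative. Neither the labels nor the methods say what a number marks. Alternatives were the authors' values, other background corrections, scalings, filters and tests, the chip, the replicate block and leaving out each array.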

Additional observations from a re-analysis of the deposited data

How the results depend on the processing

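The log2 changes of miR-221-3p and miR-222-3p were above 0 in 21 of 22 other settings each, and neither passed an adjusted p of 0.05 in any of the 22 (limma or, in 1 setting, the methods' t-test; adjusted p from 0.42 to 0.999). The exception was normexp on the column named as local background, with -0.47 for miR-221-3p and -0.15 for miR-222-3p, where that column exceeded the spot itself on 5 of 6 arrays. Plain subtraction of that column gave no log2 value for these arrays. Settings that changed only the floor, the filter, the test or the replicate block returned the main log2 change by construction. The count of 21 therefore does not measure stability. Normexp on the mean of the blank spots, chosen after the values were seen, gave 0.43 and 0.56. With single arrays left out, the change was 0.16 to 0.35 for miR-221-3p and 0.38 to 0.57 for miR-222-3p. The within-array difference was below 0 in 12 of 12 other settings, from -0.32 to -0.12. In the authors' values, where a factor per array cancels, and with the replicate block it repeated the main value by construction. Leaving out single arrays reused the same arrays, so this count does not measure stability either.

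Of all expressed miRNAs, 0 passed the adjusted p in limma, and 1 did by the methods' t-test (miR-4521), which gave 21 at its own threshold; leaving out single arrays gave 0 to 1, with miR-629-5p called without TGF-β array 3 (limma). The list of TGF-β and EMT linked miRNAs gave 0 calls in every setting, with 0 to 5 members at an unadjusted p under 0.05. With the replicate block, which pairs same-numbered arrays, the log2 changes were 0.27 for miR-221-3p and 0.45 for miR-222-3p (limma adjusted p = 0.84 and 0.49), 0 miRNAs were called and 31 had an unadjusted p under 0.05, and the within-array difference was -0.18. The block changed no call.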
